A study of Mus musculus with 8 samples.

Results

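The cell division and DNA replication genes described here are 41 genes chosen by symbol, 16 that act in DNA replication or in entry into S phase and 25 that act in mitosis. Each was looked up by its symbol in 3 tables of RNA-seq from mouse skin, and of repeated loci the 1 with the highest total level was kept. A row of their own was found for 40 of the 41 genes among 26340 gene symbols in the unperturbed table, and for 39 in the tables of hair plucking and of wounds, which hold 46036 and 46048 gene symbols. The groups were wild type (JunB +/+) and JunB cKO (JunB -/-) mice of strain C57BL/6. Per the study, JunB was deleted with a Cre recombinase driven by the keratin 14 promoter, so that cells outside the keratin 14 lineage keep the gene. The conditions were no treatment, 4 days after hair depilation by plucking, and 30 days after wounding. The labels list 1 library per genotype for the first pair of conditions and 2 per genotype for wounds, and the study pooled RNA of 3 samples of a group before sequencing. The labels call the unperturbed samples keratinocytes, while the study describes them as skin and, for the Wnt genes, as primary epidermal progenitor cells. The plucked samples carry a keratinocyte tissue label beside a skin biopsy treatment label.

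All tables give levels as FPKM (fragments per kilobase of transcript relative to the mapped reads) with 1 value per genotype, so no replicate error can be given and no test was made for any difference below. Differences are given as the log2 ratio of JunB cKO to wild type after adding 0.1 FPKM to each, and a gene was called where it differed at least 2-fold and reached at least 1 FPKM in 1 genotype. The tables were normalized separately, so levels are compared within a table only. The level of Junb itself was reduced in JunB cKO in each table, from 267.8 to 31.4 FPKM in unperturbed samples, from 40.8 to 11.7 after plucking and from 33.4 to 15.4 in wounds. The value of 1 read, estimated from short single-exon genes, gave about 13.3 and 3.92 reads per FPKM and kilobase in unperturbed wild type and JunB cKO, 12.9 and 10.2 after plucking, and 33.7 and 31.3 in wounds. For the members, reads were estimated from a linear fit to such genes that first takes an offset off the transcript length. In unperturbed samples the fit gave 16.9 and 4.98 reads per FPKM and kilobase, with an offset of about 201 bases. Intervals in square brackets below are 95% Clopper-Pearson intervals of a log2 ratio from the reads of this fit. They cover counting error only, and not the spread between mice.

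Cells copy their DNA in S phase and divide it in mitosis, and transcripts for both steps are made in proliferating cells such as basal keratinocytes and the hair matrix. Before S phase, Cdc6 loads the Mcm2 to Mcm7 helicase onto origins, cyclin E with Cdk2 and E2f1 drive entry, and Pcna, ribonucleotide reductase (Rrm1 and Rrm2) and thymidylate synthase (Tyms) keep the forks running. Mitosis genes are mostly transcribed later, towards G2 and mitosis. They include the cyclin B and Cdk1 kinase, the Aurora and polo kinases, the spindle checkpoint, the centromere and the motor proteins of the spindle. Transcripts of Mki67, Top2a and Ccna2, counted here with mitosis, also rise before it. In bulk samples a lower level of such a transcript cannot be told apart from a smaller share of cycling cells.

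The promoters of the replication and mitosis members differed in their motifs, which the choice of members did not use. Promoters from RefSeq (GRCm38.p6, 250 bases before to 50 after the start) were matched for 13 of 16 replication members and 20 of 25 mitosis members. Mcm4, Gins2, Ccne2, Ccna2, Foxm1, Aurkb, Kif20a and Tpx2 had none. The cell cycle homology region (CHR, TTTGAA or TTTAAA), which the MuvB complex binds in genes of late cell cycle, was found on either strand in 18 of 20 mitosis promoters (90.0%) and 4 of 13 replication promoters (30.8%), against 27.6% of all 32851 promoters. An E2F motif (TTTGGCGC, TTTCGCGC, TTTCCCGC or TTCCCGCC) was in 1 of 20 mitosis promoters, that of Cdk1, and in 7 of 13 replication promoters (53.8%), against 3.49% of all. CCAAT, the NF-Y motif, was in 18 of 20 and 9 of 13 (69.2%), against 37.4% of all. The same order was seen in wider lists, with a CHR in 33 of 50 other mitosis genes (66.0%) and 12 of 40 other replication genes (30.0%), and an E2F motif in 7 and 20 of them. The AP-1 motif TGANTCA, the site of Jun and Fos dimers, was in none of the 33 member promoters and in 7.81% of all promoters, which says only that these letters are not in these windows. A match is a description of letters and not of binding.

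The 150 bases before the start are shown for 6 members whose levels are described below and whose promoters differ in these motifs, 3 replication members first and 3 mitosis members after them. Capitals mark matches to the E2F, CHR and NF-Y motifs on either strand. Rrm1 has an E2F motif between a pair of CCAAT boxes, Mcm6 has 3 E2F matches of which 2 overlap, and Cdc6 has 1 E2F match far from the start. Ube2c, Cdk1 and Ccnb1 each have a CHR close to the start with CCAAT boxes upstream of it, and Cdk1 has a second CHR and an E2F match.
Rrm1 (chr7:102441545-102441694, plus strand): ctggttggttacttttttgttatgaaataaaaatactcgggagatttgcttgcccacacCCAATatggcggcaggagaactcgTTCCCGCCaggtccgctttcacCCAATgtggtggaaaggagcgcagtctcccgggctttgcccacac
Mcm6 (chr1:128359706-128359855, minus strand): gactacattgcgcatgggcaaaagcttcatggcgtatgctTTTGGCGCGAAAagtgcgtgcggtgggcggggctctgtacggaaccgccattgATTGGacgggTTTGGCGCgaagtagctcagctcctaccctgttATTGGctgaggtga
Cdc6 (chr11:98908001-98908150, plus strand): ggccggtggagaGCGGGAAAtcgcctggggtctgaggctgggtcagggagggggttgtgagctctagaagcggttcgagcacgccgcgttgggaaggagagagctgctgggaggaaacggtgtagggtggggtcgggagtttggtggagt
Ube2c (chr2:164769779-164769928, plus strand): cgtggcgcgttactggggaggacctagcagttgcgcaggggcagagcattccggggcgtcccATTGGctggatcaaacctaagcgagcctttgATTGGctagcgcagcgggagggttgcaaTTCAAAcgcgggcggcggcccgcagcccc
Cdk1 (chr10:69352913-69353062, minus strand): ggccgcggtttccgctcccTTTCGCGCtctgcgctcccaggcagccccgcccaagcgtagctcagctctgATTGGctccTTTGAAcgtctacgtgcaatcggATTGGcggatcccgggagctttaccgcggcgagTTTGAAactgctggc
Ccnb1 (chr13:100786487-100786636, minus strand): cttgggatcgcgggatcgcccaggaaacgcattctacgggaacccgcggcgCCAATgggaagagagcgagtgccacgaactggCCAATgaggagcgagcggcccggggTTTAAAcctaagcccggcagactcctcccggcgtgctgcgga

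**Figure D1:**
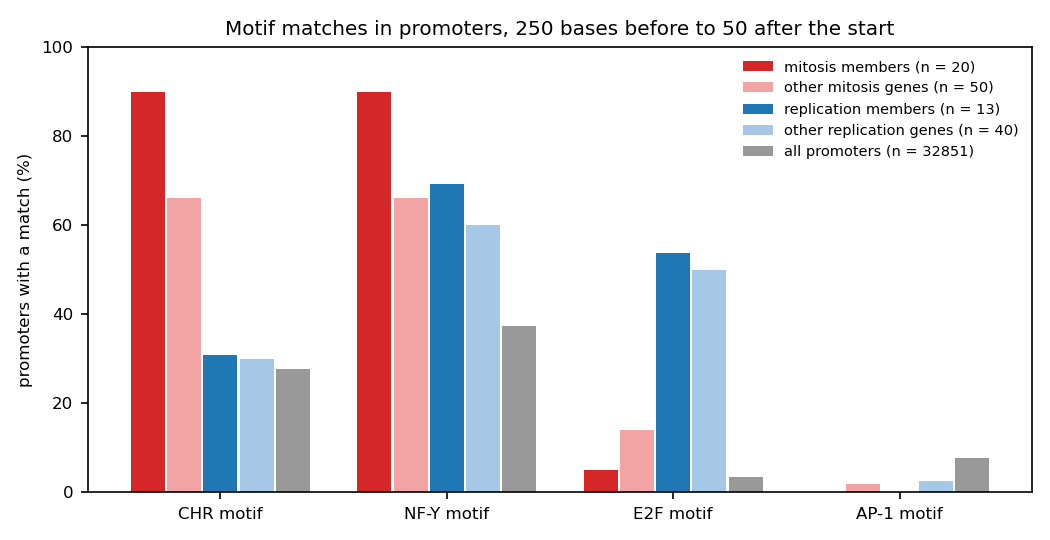
Bars give the percentage of promoters (y axis, from 0) with at least 1 match to each motif (x axis) among mitosis members (n = 20), other mitosis genes (n = 50), replication members (n = 13), other replication genes (n = 40) and all promoters (n = 32851). A CHR was in 90.0% of mitosis and 30.8% of replication members, and an E2F motif in 1 of 20 and 7 of 13.

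In unperturbed samples nearly all members were slightly higher in JunB cKO, replication and mitosis genes alike. All 24 mitosis members with a row were higher, with a median log2 ratio of 0.34 and a range of 0.02 to 0.84, and 14 of 16 replication members were higher, with a median of 0.23. Only Cdc6 and E2f1 passed the 2-fold limit. That is 2 of 40 members, where 22.1% of all 15883 genes at this level passed the limit upwards and 2.35% downwards. Most of the upward calls were of genes under 1 FPKM in wild type. Of the 11925 genes with at least 1 FPKM in both genotypes, 231 passed the limit upwards and 213 downwards. E2f1 was among these genes, and Cdc6, at 0.628 FPKM in wild type, was not. Higher by any amount were 47.2% of all genes, with a median log2 ratio of -0.04. This share fell with level, from 84.2% of genes at 1 to 3 FPKM in the higher genotype through 39.7% at 3 to 10 FPKM to 20.1% at 10 to 30 FPKM. In the same ranges, 8 of 8 members at 1 to 3 FPKM, 21 of 21 at 3 to 10 FPKM and 9 of 11 at 10 to 30 FPKM were higher. Among genes with at least 1 FPKM in both genotypes the median log2 ratio of all genes was -0.17, and relative to it the medians were 0.51 for mitosis and 0.40 for replication members.

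The low end of the unperturbed JunB cKO library was raised. The 1487 sensory receptor genes, which serve mainly smell and taste, had a median of 0 FPKM in wild type against 0.543 in JunB cKO, while they were at a median of 0 in both genotypes of the other tables. With that median subtracted, 18 of 24 mitosis and 12 of 16 replication members were higher, with medians of 0.19 and 0.09, against 28.9% of all genes and a median of -0.25. E2f1 was then the only member above the 2-fold limit. The marker levels of these libraries were those of keratinocytes, with the 10 keratinocyte markers summing to 10033 FPKM in wild type against 11855 in JunB cKO. The 5 detected fibroblast markers summed to 12.98 and 11.85, 8 leukocyte markers to 17.4 and 31.8 with 7 higher (15.3 and 22.4 without S100a8), 9 hair matrix and shaft markers to 51.3 and 51.5, and no muscle marker reached 1 FPKM.

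Among the replication members, the licensing factor Cdc6 was at 0.628 FPKM in unperturbed wild type against 1.87 in JunB cKO (log2 ratio 1.43 [0.92, 2.201]). E2f1, the transcription factor that turns on S phase genes, was at 1.05 and 2.93 (1.40 [0.81, 2.14]). Ccne1, a cyclin partner of Cdk2, was at 1.15 and 2.29 (0.94 [0.08, 1.79]). These were the lowest wild type levels among the replication members, in the range where most genes were higher in this library. The abundant members differed less, with Rrm1 at 16.3 and 21.1 FPKM, Mcm6 at 14.8 and 16.3 and Mcm4 at 12.5 and 13.6. The other helicase subunits lay in between, with Mcm2 at 6.50 and 8.17, Mcm3 at 6.63 and 7.62, Mcm5 at 5.67 and 7.72 and Mcm7 at 7.79 and 8.59. Gins2, a subunit of the active helicase, was at 6.07 and 7.61, at a locus 9.39 times as long as the annotated gene. A pair of replication members was lower in JunB cKO. Pcna, the sliding clamp of DNA polymerase, was at 21.8 and 18.6 (-0.23 [-0.53, 0.06]), and Cdk2 at 14.3 and 10.5 (-0.45 [-0.76, -0.16]). Of the remaining members, Rrm2 was at 9.41 and 10.3, Tyms at 2.37 and 2.84 and Ccne2 at 2.80 and 3.02.

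The mitosis members formed a narrow group in unperturbed samples. Mki67, the proliferation antigen that coats mitotic chromosomes, was the most abundant at 20.5 FPKM in wild type against 24.9 in JunB cKO (0.28 [0.19, 0.38]), and Top2a, which untangles DNA, was at 17.7 and 19.2 (0.11 [-0.04, 0.26]). The largest ratio was that of Aurkb, the kinase of the chromosomal passenger complex, at 2.90 and 5.25 (0.84 [0.31, 1.39]). Its partners Birc5 and Cdca8 were at 7.70 and 9.74 and at 4.03 and 5.21. Ube2c, the ubiquitin-conjugating enzyme of the anaphase-promoting complex, was at 9.31 and 14.6 (0.64 [0.35, 0.93]), at a locus that covered 0.33 of the annotated gene. Of the cyclins, Ccna2 was at 10.005 and 14.4, Ccnb1 at 1.90 and 2.84 and Ccnb2 at 5.56 and 7.48, while their kinase Cdk1 was at 4.18 and 4.68. The remaining mitosis members ranged from 1.19 FPKM (Bub1) to 9.69 (Cdca3) in wild type and from 1.504 to 11.4 in JunB cKO, and Kif23 was nearly equal at 4.47 and 4.54. The intervals excluded 0 for 8 of 24 mitosis members and 8 of 16 replication members, 7 above and 1 below, with medians of 84 and 116.5 estimated reads in the JunB cKO library. These counts take no account of the raised low end of that library, so an interval above 0 does not by itself show a rise of the gene. Cenpe, counted among the 8 mitosis members, had levels of 1.65 and 2.19 FPKM, while the receptor median of the JunB cKO library was 0.543. With that median subtracted, 18 of 24 mitosis and 12 of 16 replication members remained higher.

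**Figure D2:**
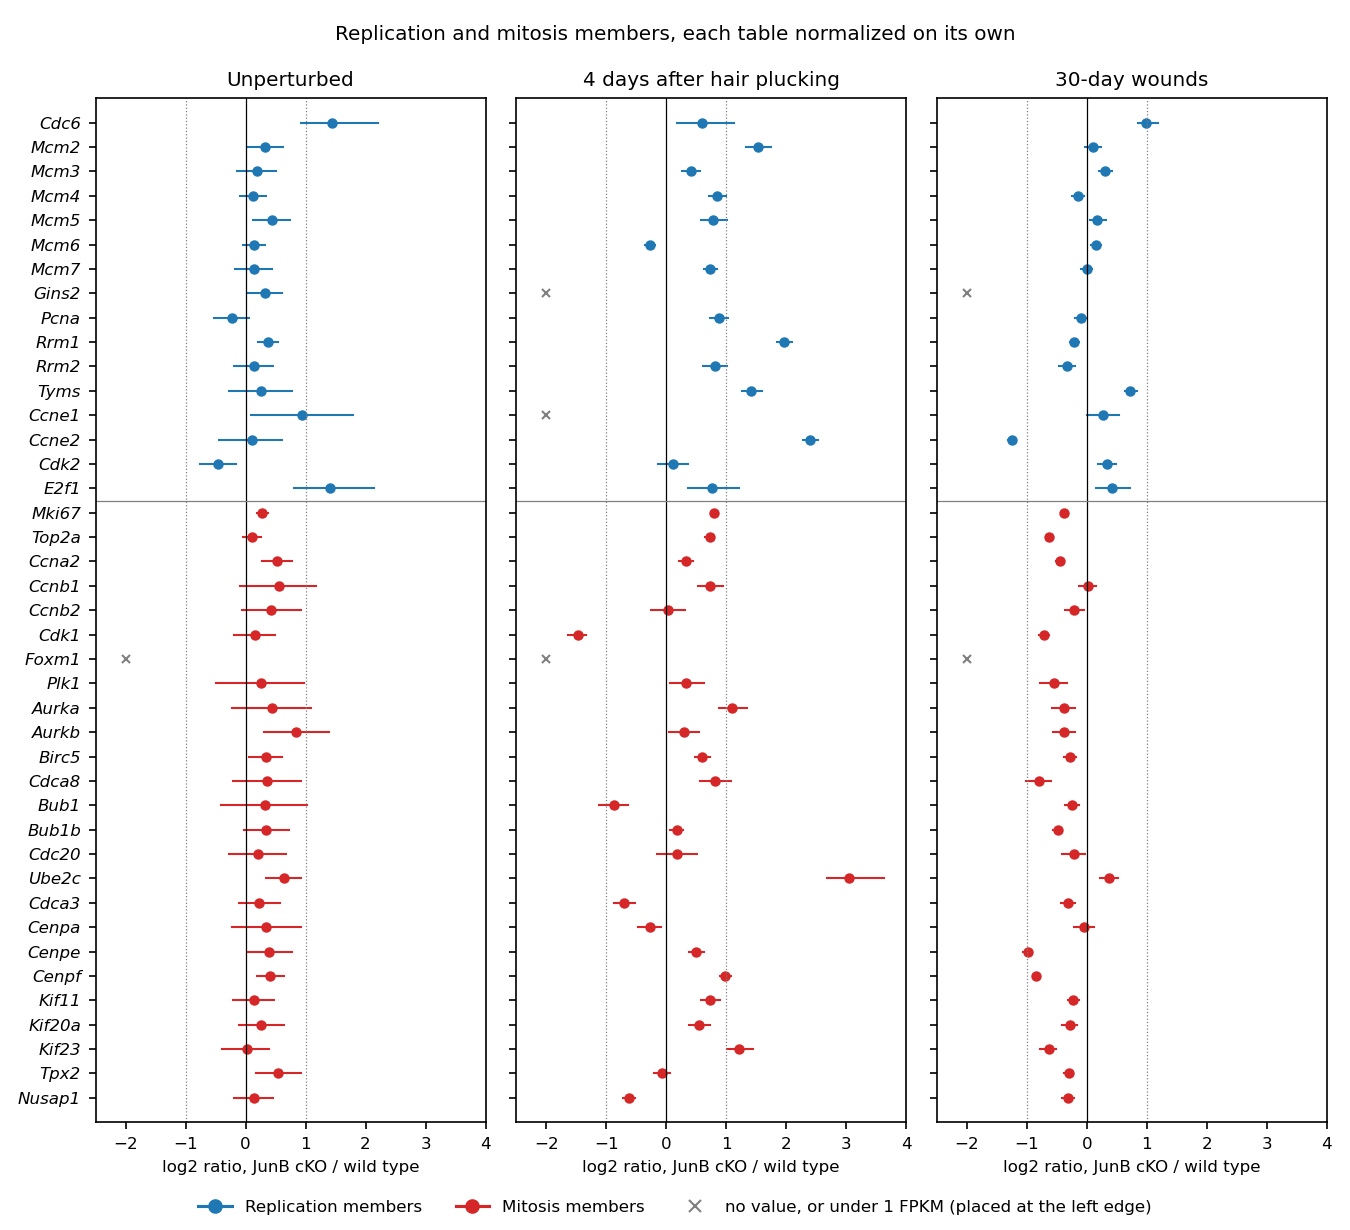
Each point is the log2 ratio of JunB cKO to wild type (x axis) of 1 member (y axis) in unperturbed samples, after hair plucking and in wounds, and lines are 95% counting intervals from estimated reads, with no replicate error, and crosses mark members with no value or under 1 FPKM. Red mitosis members sit to the right of 0 in unperturbed samples (24 of 24) and to the left in wounds (22 of 24), while after plucking 18 lie to the right and 6 to the left; dotted lines mark 2-fold.

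At 4 days after hair plucking the replication members were higher in JunB cKO almost throughout, and the mitosis members were split. Of 14 replication members at or above 1 FPKM, 13 were higher, with a median log2 ratio of 0.80, and of 24 mitosis members 18 were higher and 6 lower, with a median of 0.42. At least 2-fold higher were 7 of 38 members, 4 of replication and 3 of mitosis, a share close to the 21.0% of all 16221 genes, and 1 was at least 2-fold lower, where 18.7% of all genes were. Higher by any amount were 51.2% of all genes, with a median log2 ratio of 0.03. The share of upward 2-fold calls was thus near that of all genes, and the downward share was below it. By any amount, 31 of 38 members were higher.

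The genes of the DNA clamp and of nucleotide supply had log2 ratios of 0.81 to 1.97 after plucking. Rrm1 (ENSMUSG00000030978.10, chr7:102441695-102469771 in GENCODE M21 on GRCm38), the large subunit of ribonucleotide reductase, was at 12.02 FPKM in wild type against 47.3 in JunB cKO (1.97 [1.86, 2.097]), and its small subunit Rrm2 at 11.6 and 20.4 (0.81 [0.62, 1.01]). Tyms, which makes thymidylate, was at 9.45 and 25.5 (1.42 [1.27, 1.59]). Pcna was at 27.3 and 50.4 (0.88 [0.73, 1.04]). All members of this role were thus higher, each with an interval above 0.

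The helicase subunits did not share a direction. Mcm2 was at 5.19 FPKM and 15.1 (1.53 [1.33, 1.75]), at a locus 3.67 times as long as the annotated gene, and Mcm7 was at 24.2 and 40.4 (0.74 [0.62, 0.85]), at a locus 3.36 times as long. Mcm4 was at 12.4 and 22.3, Mcm5 at 5.95 and 10.3 and Mcm3 at 15.98 and 21.3. Mcm6 was the exception at 40.96 and 34.1 (-0.26 [-0.35, -0.18]), although the 6 subunits form 1 ring. Cdc6 was low, at 0.961 and 1.51.

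Ccne2 (ENSMUSG00000028212.16, chr4:11191351-11204779), the other cyclin partner of Cdk2, had the largest difference of the replication members, from 15.8 FPKM to 83.7 (2.40 [2.29, 2.52]). Its locus was 4.68 times as long as the annotated gene in all tables and the annotation holds transcripts from 418 to 3006 bases, so reads of neighbouring sequence or of short isoforms could not be separated. Ccne1 was below the limit of 1 FPKM, at 0.136 and listed at 0. Cdk2 itself was at 8.16 and 8.85 (0.12 [-0.14, 0.36]), and E2f1 at 1.91 and 3.31 (0.76 [0.36, 1.22]).

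Among the mitosis members after plucking, Ube2c (ENSMUSG00000001403.13, chr2:164769898-164778822) had the largest difference of the whole list, from 1.36 FPKM to 11.96 (3.05 [2.68, 3.63]). It rested on about 44 estimated reads in wild type, and in the same table other genes of similar level were listed at 0 in 1 genotype. Kif23, a motor needed for cytokinesis, was at 5.46 and 12.8 (1.22 [1.02, 1.44]), and Aurka, the centrosome kinase, at 8.96 and 19.4 (1.10 [0.88, 1.34]). Cenpf of the outer kinetochore lay just inside the limit at 8.40 and 16.7 (0.98 [0.89, 1.08]). Mki67 was at 35.0 and 61.0 (0.80 [0.75, 0.85]) and Top2a at 34.9 and 57.7 (0.72 [0.66, 0.80]). Both are long transcripts with narrow counting intervals.

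In the opposite direction, Cdk1 (ENSMUSG00000019942.13, chr10:69335146-69352938) was at 26.0 FPKM in wild type against 9.31 in JunB cKO after plucking (-1.47 [-1.63, -1.34]), the only member called lower. Its cyclins did not share this, with Ccnb1 at 9.24 and 15.5 (0.74 [0.54, 0.95]), Ccnb2 at 11.0 and 11.2 (0.03 [-0.25, 0.31]) and Ccna2 at 26.2 and 33.1. Bub1, a kinase of the spindle checkpoint, was at 9.58 and 5.23 (-0.86 [-1.11, -0.64]), while its relative Bub1b was at 26.0 and 29.4 (0.18 [0.07, 0.29]). Also lower were Cdca3 at 28.8 and 17.7, Nusap1 of the spindle at 40.1 and 26.1, the centromeric histone Cenpa at 25.9 and 21.4 and Tpx2, the activator of Aurka, at 16.9 and 16.1. Within a functional pair or complex, values therefore pointed both ways. The remaining mitosis members were higher by 0.18 to 0.81, among them Cdca8 at 9.30 and 16.4, Kif11 at 7.01 and 11.7, Birc5 at 19.5 and 29.7, Kif20a at 8.28 and 12.2 and Cenpe at 8.42 and 11.9. Plk1 was at 6.41 and 8.12, Aurkb at 9.83 and 12.1 and Cdc20 at 6.29 and 7.17.

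Cell type markers also differed between the plucked libraries. Of 9 detected markers of hair matrix and shaft 8 were higher in JunB cKO, with a summed level of 54.0 FPKM in wild type against 384.7 in JunB cKO, and Krt71 was at 26.1 and 168.0. Shh, Krt31 and Krt35 were listed at 0 in wild type. All 6 fibroblast markers were lower, summing to 5109 and 1856 FPKM, as were 5 of 5 muscle markers (134.8 and 26.4) and 4 of 5 adipocyte markers (147.4 and 48.7). The 10 keratinocyte markers summed to 7925 and 9549 FPKM, with 7 higher. Leukocyte markers were lower in 6 of 9, with sums of 239.5 and 241.7 FPKM, of which S100a8, listed at 0 in wild type, made up 152.3 in JunB cKO, so that the sums without it were 239.5 and 89.4. Lower were also endothelial markers in 3 of 5 (70.4 and 52.8). The part of these differences in the members' values was not tested.

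**Figure D3:**
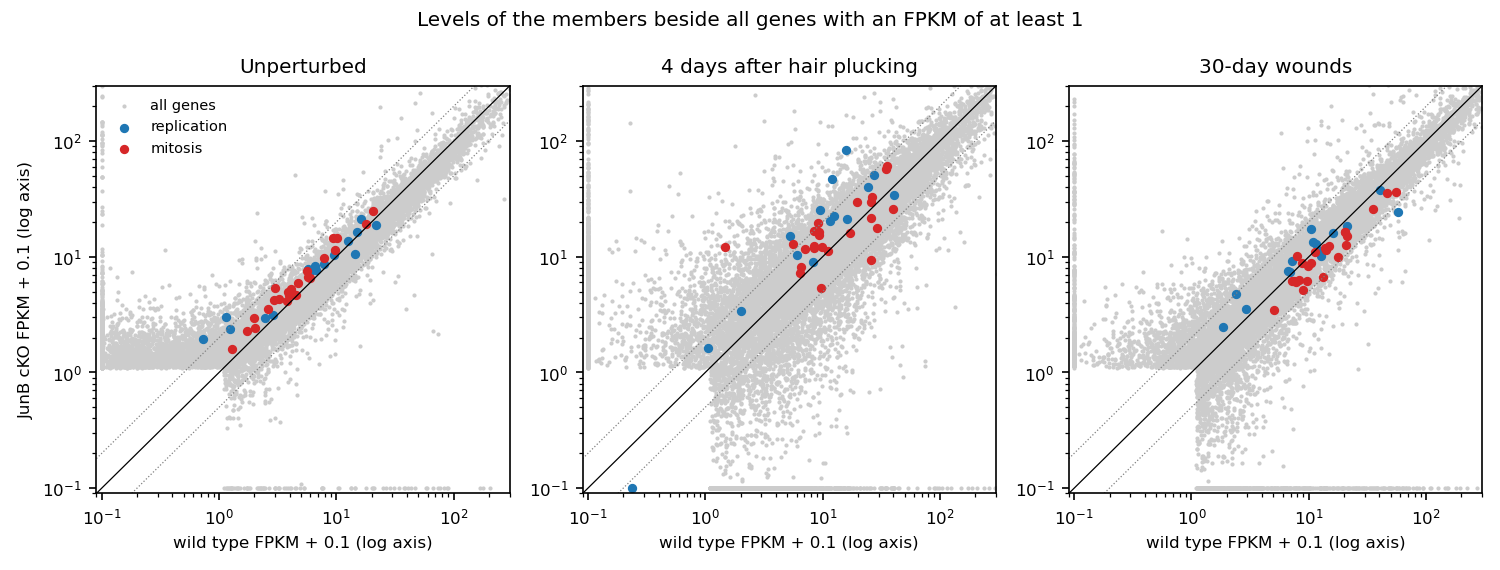
Each panel plots FPKM + 0.1 in wild type (x axis, log) against JunB cKO (y axis, log) for all genes with at least 1 FPKM in 1 genotype (grey), replication members (blue) and mitosis members (red); the solid line marks equality and the dotted lines 2-fold. In unperturbed samples the members hug the line from above, after plucking they scatter from Cdk1 (26.0 and 9.31) to Ccne2 (15.8 and 83.7), and in wounds the red points lie mostly below the line.

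In wounds at day 30 the mitosis members were lower in JunB cKO by small amounts and the replication members were not. Of 24 mitosis members 22 were lower, with a median log2 ratio of -0.34, and 10 of 15 replication members were higher, with a median of 0.15, counting Mcm7 with a ratio that rounds to 0.00. No member was at least 2-fold higher, where 9.08% of all 17346 genes were, and 1 of 39 was at least 2-fold lower, where 7.67% were. By any amount 51.4% of all genes were higher and 48.6% lower, with a median log2 ratio of 0.02. All differences of the mitosis members were thus under 2-fold, with the same sign in 22 of 24.

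Of the mitosis members, Cenpe and Cenpf had the lowest ratios in wounds. Cenpe, a motor that carries chromosomes along the spindle, was at 13.1 FPKM in wild type against 6.60 in JunB cKO (-0.97 [-1.06, -0.91]), and Cenpf at 17.8 and 9.86 (-0.84 [-0.90, -0.80]). Cenpa, the histone that marks the centromere itself, was nearly equal at 11.3 and 10.9 (-0.04 [-0.21, 0.13]). Cdca8 of the chromosomal passenger complex was at 8.86 and 5.07 (-0.79 [-1.01, -0.59]), while its partners Aurkb and Birc5 were closer, at 8.12 and 6.24 and at 14.8 and 12.2. Cdk1 was at 20.7 and 12.6 (-0.71 [-0.79, -0.64]), lower as after plucking. Kif23 and Top2a were also lower, at 9.59 and 6.14 (-0.64 [-0.77, -0.52]) and at 55.9 and 36.2 (-0.63 [-0.67, -0.59]).

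Mki67 (ENSMUSG00000031004.8, chr7:135689784-135716361), the usual marker of cycling cells, was at 46.0 FPKM in wild type wounds and 35.4 in JunB cKO wounds (-0.38 [-0.41, -0.35]). Of the kinases, Plk1 was at 4.99 and 3.39 and Aurka at 7.72 and 5.91, and Bub1b at 21.2 and 15.1 and Ccna2 at 35.2 and 25.9 were likewise lower. Smaller differences of -0.20 to -0.31 were seen for Ccnb2 (13.6 and 11.8), Cdc20 (7.10 and 6.09), Kif11 (10.3 and 8.82), Bub1 (9.75 and 8.24), Kif20a (7.43 and 6.09), Tpx2 (20.2 and 16.4), Nusap1 (14.0 and 11.3) and Cdca3 (20.1 and 16.2). The exceptions were Ube2c, at 7.82 and 10.2 (0.37 [0.23, 0.53]), and Ccnb1, at 8.71 and 8.81 (0.02 [-0.12, 0.16]). Counting intervals lay below 0 for 21 of the 24.

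Of the replication members in wounds, Cdc6 was at 2.31 FPKM and 4.70 (0.99 [0.86, 1.19]), a fold of 2.03 that falls just short of the limit once 0.1 FPKM is added, and Tyms at 10.3 and 17.2 (0.73 [0.63, 0.83]). E2f1 was at 1.76 and 2.39, Cdk2 at 7.14 and 9.06, Ccne1 at 2.82 and 3.42 and Mcm3 at 10.7 and 13.3. Mcm2, Mcm5, Mcm6 and Mcm7 differed by at most 0.18 on the log2 scale, and Mcm7 was at 16.1 in both genotypes. Lower were Rrm2 at 12.7 and 10.04, Rrm1 at 21.2 and 18.4, Mcm4 at 12.3 and 11.1 and Pcna at 40.4 and 37.7. Ccne2 was called lower, at 57.4 and 24.1 (-1.25 [-1.31, -1.19]), at the same long locus as after plucking. The genes of nucleotide supply therefore did not share a direction in wounds. Tyms was higher in JunB cKO in all tables, but its counting interval in unperturbed samples included 0 (0.25 [-0.28, 0.78]).

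In wounds, 7 of 9 detected hair matrix and shaft markers were lower in JunB cKO, with summed levels of 4414 and 3283 FPKM, and Shh, which marks the growing matrix, was at 1.90 and 0.51. Keratinocyte markers were higher in 6 of 10 (sums of 3493 and 4589 FPKM), fibroblast markers in 5 of 6 (10532 and 13412), leukocyte markers in 7 of 9 (461.1 and 581.2, or 424.4 and 442.6 without S100a8), endothelial markers in 4 of 5 (133.1 and 180.6), adipocyte markers in 4 of 5 (706.7 and 824.0) and muscle markers in 5 of 5 (2213 and 2558). Whether these bear on the mitosis members was not tested.

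Wider lists of replication and mitosis genes held 50 and 58 further genes. In unperturbed samples 40 of 49 other replication genes and 40 of 55 other mitosis genes were higher, against 47.2% of all genes. Their median log2 ratios were 0.23 and 0.27, near those of the members. Part of these genes lay at 1 to 3 FPKM, where 84.2% of all genes were higher, and the lists were not matched for level. After plucking the medians were 0.73 and 0.74, with 37 of 49 and 45 of 57 higher against 51.2% of all genes. The gap between replication and mitosis members was thus not seen in the wider lists. In wounds the medians were -0.12 and -0.05. Lower were 31 of 49 other replication genes and 30 of 57 other mitosis genes, against 48.6% of all genes. In wounds the other mitosis genes were thus close to evenly split, unlike the 22 of 24 lower mitosis members, and the replication members' median had the opposite sign to that of the other replication genes. The subunits of the DREAM and MuvB complexes, which repress or activate CHR genes, were higher in 5 of 11 in unperturbed samples, 6 of 11 after plucking and 3 of 11 in wounds, with medians of -0.07, 0.17 and -0.13. In the same order, 47.2%, 51.2% and 51.4% of all genes were higher.

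Genes near the ends of each list were as follows. In unperturbed samples the highest ratios of the other replication genes were those of the origin protein Orc1 (0.34 and 1.78 FPKM) and Pclaf, which binds Pcna (2.62 and 6.88), and the highest of the other mitosis genes was that of the motor Kif18b (1.72 and 4.16). The lowest among genes seen in both genotypes were Pold3 (7.20 and 4.73), a subunit of DNA polymerase delta, in the replication list and the checkpoint kinase Ttk (17.5 and 11.7) in the mitosis list. After plucking the origin-firing factor Ticrr was at 0.63 and 6.39, Gmnn, the inhibitor of licensing, at 1.41 and 13.1 and the single-strand binding subunit Rpa2 at 1.06 and 7.89, while Gins1 was at 7.49 and 1.14 and the chromatin assembly factor Chaf1b at 7.26 and 1.34. Spc24, Gtse1 and Kifc1 were listed at 0 in plucked wild type but reached 5.88, 2.06 and 2.04 in JunB cKO, and Pimreg was at 3.46 and listed at 0. In wounds Mcm10 was at 3.67 and 8.27 and Tk1, thymidine kinase, at 10.2 and 19.8, whereas Sgo1, the guardian of cohesin, was at 7.57 and 2.58 and Gins1 at 4.50 and 1.68. Gins1 was thus lower in JunB cKO both after plucking and in wounds.

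Transcripts of replication-dependent histone genes accumulate in S phase and are kept in libraries made from total RNA. Histone genes were taken by symbol, and the list was not limited to genes expressed in S phase only. In unperturbed samples 39 of 54 detected histone genes were higher in JunB cKO, against 47.2% of all genes, and the median log2 ratio was 0.17. After plucking 33 of 47 were higher, against 51.2% of all genes, with a median of 0.56. Of these 47, 19 passed the 2-fold limit upwards and 5 downwards, where 21.0% and 18.7% of all genes did, and Hist1h4d was at 136.9 FPKM in wild type against 354.1 in JunB cKO. In wounds 26 were higher and 25 lower, where 51.4% of all genes were higher, with a median of 0.00. Histone genes are near-identical copies, so reads may be split between them in ways that these values cannot show.

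**Figure D4:**
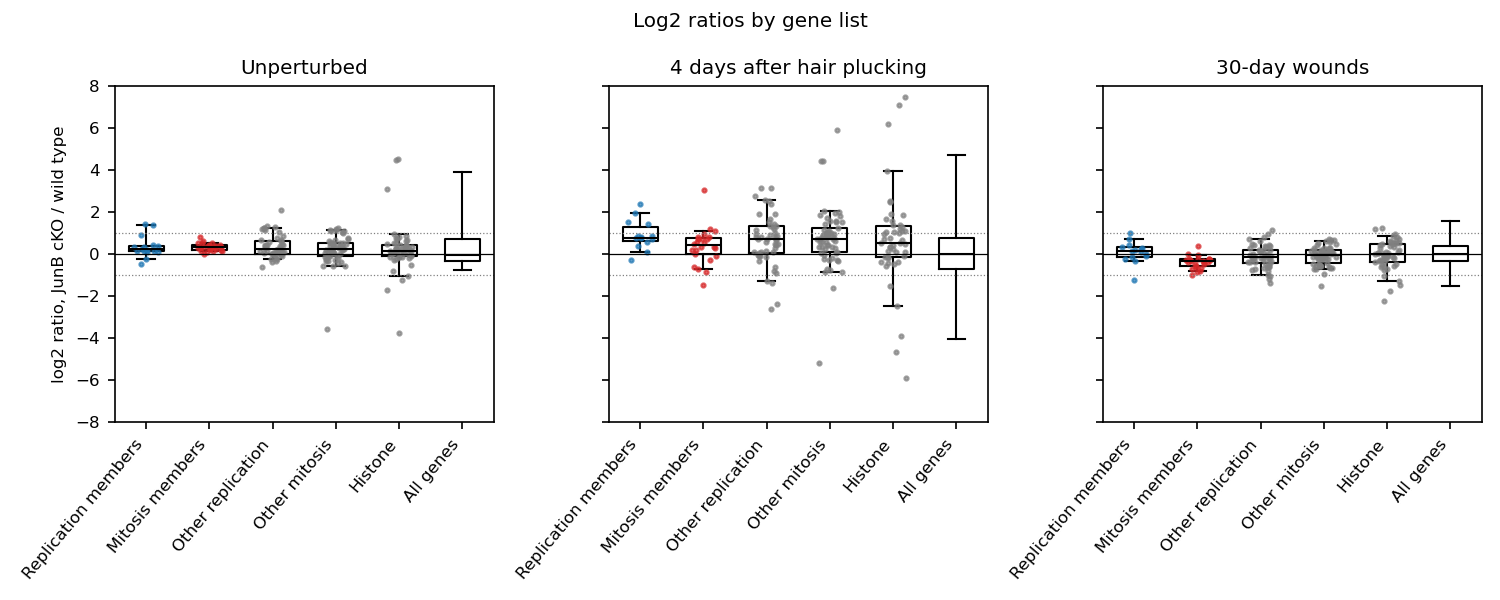
Points are log2 ratios of JunB cKO to wild type (y axis) of single genes with at least 1 FPKM in 1 genotype, and boxes give the median and quartiles with whiskers at the 5th and 95th percentiles, for each gene list and for all genes (x axis). Mitosis members lie above 0 in unperturbed samples (median 0.34) and below 0 in wounds (-0.34), where the other mitosis genes centre on -0.05.

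In total, 38 members reached 1 FPKM in each table. Of these, 9 were higher in JunB cKO in all tables, 7 replication members (Mcm7 among them, by a margin in wounds that rounds to 0.00) and the mitosis members Ccnb1 and Ube2c, and none was lower in all. Of the 24 mitosis members, 22 were higher in unperturbed samples and lower in wounds, and 16 were higher after plucking and lower in wounds. The 6 that were lower after plucking, Cdk1, Bub1, Cdca3, Cenpa, Tpx2 and Nusap1, were lower in wounds as well, where 22 of all 24 were. Intervals included 0 for Tpx2 after plucking (-0.07 [-0.20, 0.06]) and for Cenpa in wounds (-0.04 [-0.21, 0.13]). The share of all genes with each of these patterns across tables was not counted. The unperturbed signs also depend on the raised low end of the JunB cKO library. With the receptor median subtracted there, 18 of 24 mitosis and 12 of 16 replication members were higher. As a description, the log2 ratios of the 38 members correlated with Pearson's r of 0.10 between unperturbed and plucked samples, 0.33 between unperturbed samples and wounds and 0.07 between plucked samples and wounds, over genes that share their libraries.

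Foxm1, the transcription factor of the mitosis genes, had no row of its own. It was merged with 4933413G19Rik in the unperturbed table, where the merged locus was at 3.37 FPKM in wild type against 7.28 in JunB cKO. In the other tables a locus of 4 symbols held it, at 7.54 and 19.2 after plucking and 6.72 and 11.2 in wounds. These values cannot be ascribed to Foxm1, and Gins2 was not analysed here outside unperturbed samples. Loci over 1.5 times as long as the annotated gene were also those of Ccna2, Cdc20 and Kif20a in all tables and of Rrm2 in unperturbed and plucked samples, so that reads of other sequence in these loci could not be told apart from those of the gene.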

How the data were processed

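RNA of mouse skin samples was depleted of rRNA and sequenced. Per the study, the reads were aligned to GRCm38 (mm10) with TopHat or HISAT2, assembled with Cufflinks and compared with Cuffdiff. The study gives versions of TopHat and Cufflinks, but not which aligner was used for each comparison. The deposited tables hold FPKM values calculated by the authors, 1 per genotype and gene locus, and the wound table does not separate its 2 libraries per genotype. The tables also hold the authors' fold changes, p-values and q-values, which were not used. The condition of the plucking and wound tables is given by the names of the tables. Members and gene lists were chosen with earlier results of these data known.

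Each symbol was represented by its locus with the largest summed FPKM, loci with several symbols were left out, and log2 ratios used a pseudocount of 0.1 FPKM. Genes with at least 1 FPKM in the higher genotype formed the background of each comparison. All 41 members were named with their values, together with Junb, the cell type markers, at most 3 histone genes per table and, from the wider lists, genes among the 3 highest and 3 lowest log2 ratios of a table. Reads were estimated from 1-read values of single-exon, single-transcript genes and the longest coding transcript of GENCODE M21, so they are approximate. No test was made, since the FPKM come as 1 value per genotype. The steps were tested on simulated data. Alternatives varied the pseudocount, the minimum FPKM, the fold limit, the centring, the choice of loci and the mitosis members included. Python 3.11.15, pandas 2.3.3, SciPy 1.17.1 and matplotlib 3.10.9 were used.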

Additional observations from a re-analysis of the deposited data

Results flagged for a closer look

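Ccne2 was past the 2-fold limit in opposite directions, with a log2 ratio of JunB cKO to wild type of 2.40 after hair plucking and -1.25 in wounds. Each value rests on 1 FPKM per genotype, both come from the same locus 4.68 times as long as the annotated gene, and the difference between the conditions was not tested. The mitosis members as a list had median log2 ratios of 0.34 in unperturbed samples and 0.42 after plucking against -0.34 in wounds. This difference was not tested either, and the 57 other mitosis genes detected in wounds had a median of -0.05.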

How the results depend on the processing

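Of 109 recomputed values, 97 kept their direction and stayed within 1.5 times a count or 0.2 of a median log2 ratio. Another 12 moved and 0 reversed. All moved values are counts of called members. Every median of the replication and mitosis members kept its sign under every alternative run. The limit of 0.2 is wide beside these medians, such as 0.15 for replication members in wounds, so a median near 0 could still count as kept. In unperturbed samples the receptor subtraction lowered the mitosis median from 0.34 to 0.19 and the replication median from 0.23 to 0.09, and both counted as kept. In unperturbed samples the 2 members called higher became 0 with a pseudocount of 1 FPKM or a minimum of 3 FPKM, 5 with a 1.5-fold limit, 4 when centred on genes with the minimum FPKM in both genotypes, and 1 with the receptor median subtracted. After plucking a 1.5-fold limit gave 21 higher and 4 lower in place of 7 and 1, and no minimum FPKM gave 2 lower, Ccne1 being the added member. In wounds a pseudocount of 0.01 FPKM called 1 member higher (Cdc6) in place of 0, a 1.5-fold limit gave 2 higher and 7 lower, and leaving out loci longer than 1.5 times the annotated gene gave 0 lower in place of 1, since it removes Ccne2. Leaving out Mki67, Top2a and Ccna2 gave mitosis medians of 0.34 in unperturbed samples, 0.34 after plucking and -0.30 in wounds. The receptor subtraction, the centring on genes detected in both genotypes and the exclusion of long loci were chosen after seeing the data. No paired analysis was possible because wounds have a single FPKM for each genotype, and for the same reason no library could be left out. Depth limits the unperturbed comparison most, with about 3.92 reads per FPKM and kilobase in JunB cKO.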
